A study of Salmo salar with 16 samples.

Results

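The spleens of 4 Atlantic salmon fed autolyzed Cyberlindnera jadinii yeast (ACJ) were compared with those of 4 salmon fed the same yeast after heat inactivation (ICJ). These are all the ACJ and ICJ fish, 8 of the 16 fish in the series, and they were chosen by their diet labels alone. Both diets also held 40% soybean meal and 5% yeast, so the comparison turns on how the yeast was treated after harvest. The other fish ate 40% soybean meal without yeast (SBM, 4 fish) or a fishmeal diet (FM, 4 fish), and all diets were fed for 37 days in recirculated fresh water at 15 °C to fish with a mean starting weight of 5.71 g. Diets were given by tank, in duplicated tanks, and the labels do not say which fish shared one. The p-values treat the fish as independent, so a difference between tanks cannot be told apart from one between diets.

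Yeast cells carry a wall of mannoproteins, beta-glucan and chitin, and these molecules are recognised by innate receptors such as C-type lectins. In autolysis the yeast's own enzymes break down the cell contents and loosen the wall, while heat inactivation leaves the cells whole but dead. The spleen of bony fish filters blood through a meshwork of stromal cells and matrix, and holds red cells, thrombocytes, macrophages and lymphocytes, so its RNA can show both an immune response and a change in the tissue's makeup.

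Paired-end, strand-specific mRNA sequencing gave 5032593 to 7414858 counted fragments in ACJ spleens and 6141251 to 7469715 in ICJ spleens. A gene with 3 fragments in a library stood at 0.403 to 0.598 counts for each 1000000 fragments (CPM) over these 8 fish, which sets the level below which a gene was not measurable. Levels per fish are CPM after TMM scaling, and 28929 genes passed the expression filter. The spleen-forming homeobox genes known from mouse were expressed in every fish. The T-cell leukemia homeobox protein 1-like gene (LOC106606259) had 466, 384, 401 and 327 CPM in ACJ spleens, against 334 to 395 CPM in ICJ spleens, and nkx23 had 48.8 to 62.7 CPM, against 50.8 to 60.3 CPM.

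No gene passed an adjusted p below 0.05 between ACJ and ICJ (edgeR quasi-likelihood test, Benjamini-Hochberg adjustment over 28929 genes), so percent called was 0, and the smallest adjusted p was 0.715. The paper, with SARTools on the same fish, lists 7 genes at an adjusted p below 0.05, called the study's list for this comparison below. At an unadjusted p below 0.05 there were 1639 genes, or 5.67% of those tested, of which 827 (2.86%) were higher and 812 (2.81%) lower in ACJ. For 924 genes, 3.19% of all tested, the ranges of CPM in the 2 groups were apart, with 433 (1.50%) higher and 491 (1.70%) lower in ACJ. With 4 fish against 4, the smallest p that the exact two-sided permutation test allows is 0.0286. By chance a share of 0.05 of the genes is expected at an unadjusted p below 0.05, and a share of 0.0286 with ranges apart. Both observed shares were close to these. DESeq2 called 6 genes, edgeR's likelihood ratio test called 4, and a fit of the 8 fish alone called 2. Genes called in more than 1 of these settings were a collagen gene (LOC106596897), LOC106613089, LOC106589400 and a gene named tumor necrosis factor receptor superfamily member 5-like. The adjusted p of every gene at an unadjusted p below 0.05 that is named below lay between 0.715 and 0.871 in the edgeR fit. Each gene is therefore described by its values, and each list by its counts beside these background shares.

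Among 24 pathway lists, collagens had the highest median and immunoglobulin genes the lowest. Over all genes tested, the median log2 fold change of ACJ over ICJ was -0.01 and 48.1% of genes were above 0. The median was 0.27 over the 21 tested collagen genes and 0.15 over 40 other matrix genes, and it was -0.31 over 10 immunoglobulin genes. Every other pathway list had a median between -0.22 and 0.16. Many salmon genes have only a locus number, and some of the names used here come from the study's own lists of genes that differed in these same fish. A list that leans on such names is not independent evidence of its direction.

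**Figure D1:**
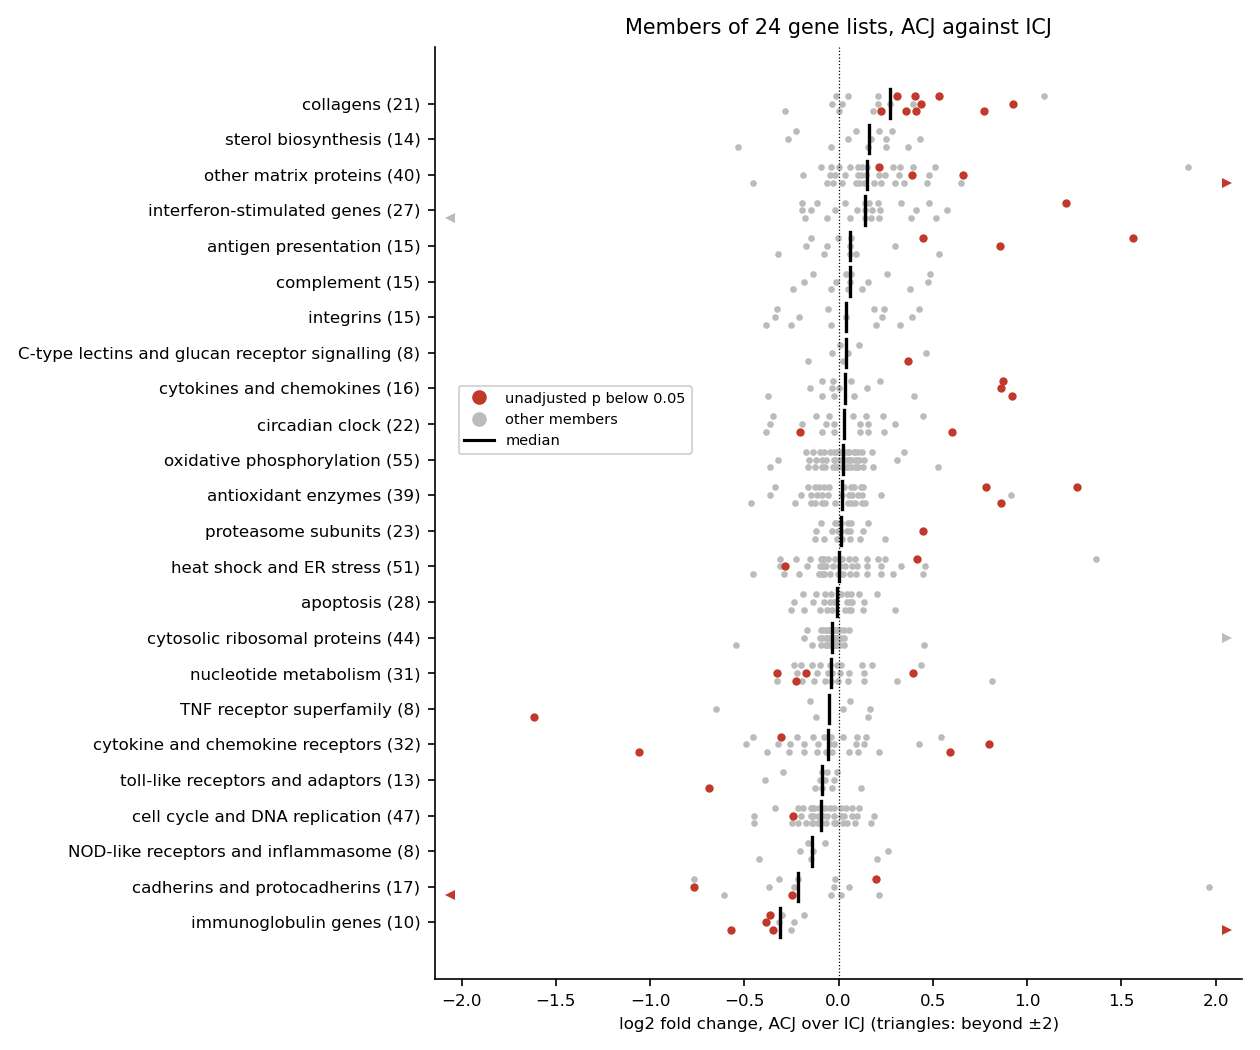
Log2 fold change of ACJ over ICJ (x axis) for the tested members of 24 gene lists, one row a list with its number of tested members, ordered by median. Red points are members at an unadjusted p below 0.05, grey points the others, black bars the medians, and the 5 triangles mark members beyond the axis. Collagens lie at the top with a median of 0.27 and immunoglobulin genes at the bottom with -0.31.

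Collagens are the proteins of the fibres and sheets that give the spleen's meshwork its form, and 18 of the 21 tested members of the list had a higher fitted level in ACJ. Of these 21, 9 were at an unadjusted p below 0.05, or 42.9%, against 5.67% of all genes, and all 9 were higher in ACJ. By direction, 3 of the 21 did not overlap, all higher in ACJ, beside 1.50% of all genes. Among the 16 members named by a symbol, 5 were at that p and the median was 0.24, while 4 of the 5 members named only through the study's lists were at that p. In whole tissue, fewer cells of a type and less RNA per cell cannot be told apart.

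The gene named collagen alpha-1(XI) chain-like (LOC106596897, chromosome 3, 4193218 to 4367779 on the minus strand of ICSASG_v2) codes for a chain of a minor fibril-forming collagen. Among the collagens at an unadjusted p below 0.05 it had the largest log2 fold change. It stood at 40.8, 37.9, 47.6 and 41.1 CPM in ACJ spleens, against 30.1, 18.4, 21.4 and 18.02 CPM in ICJ spleens. All ACJ fish were above all ICJ fish, and the log2 fold change was 0.93 ± 0.17 (SE, adjusted p = 0.715). It also stood at 33.3 to 40.9 CPM in SBM spleens and 17.5 to 29.3 CPM in FM spleens. The ICJ fish were thus at the level of the FM fish, while the ACJ fish were at or above that of the SBM fish.

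The chains of type I collagen, the main fibre of connective tissue, were the most abundant members. Their gene col1a1b had 1828, 2209, 1957 and 1609 CPM in ACJ spleens, against 1394, 1650, 1478 and 1198 CPM in ICJ spleens, with a log2 fold change of 0.41 ± 0.14 (SE). Only ACJ replicate 4 and ICJ replicate 2 overlapped. Its second copy col1a1a had 230, 388, 353 and 252 CPM in ACJ spleens, against 151, 272, 171 and 122 CPM in ICJ spleens (log2 fold change 0.77 ± 0.28 SE). The partner chain col1a2 did not overlap, at 945, 1210, 1103 and 848 CPM in ACJ spleens, against 827, 845, 771 and 586 CPM in ICJ spleens, although the gap between the nearest fish was small (log2 fold change 0.44 ± 0.17 SE). In each of these 3 genes ICJ replicate 4 was the lowest and ICJ replicate 2 the highest of its diet.

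Type VI collagen forms fine filaments around cells. Its 3 chains at an unadjusted p below 0.05, all higher in ACJ, were col6a1 (344 to 507 CPM in ACJ spleens, against 293 to 457 CPM in ICJ spleens, log2 fold change 0.36 ± 0.16 SE), col6a2 (168 to 226 CPM, against 144 to 200 CPM, 0.31 ± 0.13) and the collagen alpha-3(VI) chain-like gene LOC106581666 (457 to 660 CPM, against 330 to 539 CPM, 0.41 ± 0.17). Each overlapped through ICJ replicate 2. Both copies named collagen alpha-1(XVIII) chain-like, a basement membrane collagen, were also higher. The copy on chromosome 29 (LOC106590282) had 181 to 205 CPM in ACJ spleens, against 150 to 178 CPM in ICJ spleens, and that on chromosome 17 (LOC106575613) had 10.5 to 15.6 CPM, against 6.10 to 13.1 CPM.

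Of the 40 other matrix genes, 32 had a higher fitted level in ACJ, 4 were at an unadjusted p below 0.05 and higher, and none was at that p and lower. The share of all genes at that p and higher was 2.86%. Of the 30 members named by a symbol 2 were at that p, or 6.67%, near the 5.67% of all genes. Of the 10 named only through the study's lists 2 were, the periostin gene and LOC106606431. Among the 4 was also the matrix-degrading protease gene mmp13, which rested on ACJ replicate 4. Its log2 fold change of 2.59 was 0.35 without that fish. Periostin (LOC100380654), a matrix protein that binds collagen and is made by fibroblasts, stood at 230, 224, 225 and 210 CPM in ACJ spleens, against 156, 176, 181 and 165 CPM in ICJ spleens (log2 fold change 0.39 ± 0.11 SE). Its 4 ACJ values lay within a narrow band, and the groups were well apart. Nidogen nid2, which links laminin to collagen in basement membranes, had 31.8, 36.5, 43.4 and 31.1 CPM in ACJ spleens, against 26.5, 19.7, 25.2 and 19.01 CPM in ICJ spleens (0.66 ± 0.20). The metalloproteinase inhibitor 2-like gene LOC106606431, a member of a family that blocks matrix-degrading enzymes, did not overlap either, at 329 to 380 CPM in ACJ spleens, against 291 to 317 CPM in ICJ spleens (0.21 ± 0.08).

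One gene that acts on collagen went the other way. The gene bmp1, which in mammals codes for the protease that trims procollagens so that they can form fibrils, was among the 10 genes with the smallest p. It had 10.3, 8.56, 8.78 and 11.9 CPM in ACJ spleens, against 15.9, 14.9, 16.2 and 12.1 CPM in ICJ spleens (log2 fold change -0.59 ± 0.13 SE, adjusted p = 0.854). The lowest ICJ fish was just above the highest ACJ fish. Integrins, the receptors by which cells hold on to matrix, showed no such lean, with 8 of 15 tested members higher, 7 lower and none at an unadjusted p below 0.05.

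**Figure D2:**
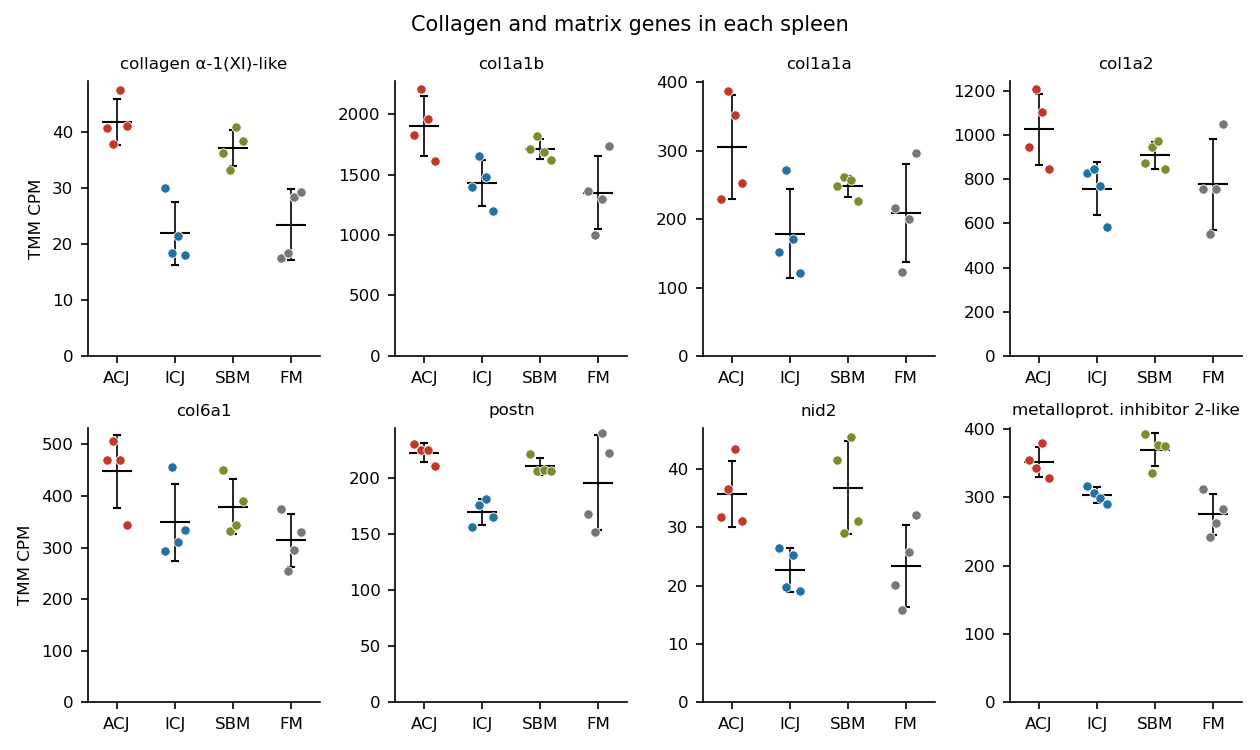
TMM-scaled CPM (y axis, from 0) of 8 collagen and matrix genes in each spleen, by diet (x axis). Points are single fish in the order of their replicate numbers, and bars are the mean ± SD of 4 fish. In collagen alpha-1(XI)-like, postn and nid2 all 4 ACJ points lie above all 4 ICJ points, and the SBM points lie close to the ACJ points.

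Both yeast diets were also set against soybean meal without yeast. Over the 21 tested collagens the median log2 fold change was 0.18 for ACJ over SBM and -0.17 for ICJ over SBM, and for nid2 the values were -0.04 ± 0.20 and -0.70 ± 0.20 (SE). Of the 21, none was at an unadjusted p below 0.05 in ACJ over SBM and 3 were in ICJ over SBM, where 6.90% and 4.99% of all genes were at that p. Neither comparison had a gene at an adjusted p below 0.05 in the edgeR fit, whereas the paper, with SARTools, lists such genes for both. Periostin had a log2 fold change of 0.08 ± 0.11 in ACJ over SBM and -0.31 ± 0.11 in ICJ over SBM. These 3 comparisons share fish, so the values are given side by side and no agreement between them was computed.

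The count of collagens depended on single fish. It was 5 of 21 without ACJ replicate 3, without ICJ replicate 1 or without ICJ replicate 3, it was 2 without ICJ replicate 4, and it was 14 without ICJ replicate 2, while the median stayed between 0.18 and 0.43. Markers of stroma, of which type I collagen chains are part, had a mean log2 CPM of 9.08 to 9.54 in ACJ spleens, against 8.70 to 9.19 in ICJ spleens, and 5 of the 5 tested markers had a higher fitted level in ACJ. The 3 type I collagen genes were the only ones of these 5 at an unadjusted p below 0.05. The other markers had log2 fold changes of 0.09 and 0.11, so the stroma level is not independent of the collagen list. Red cell markers stood at a mean log2 CPM of 7.88 to 8.06 in ACJ spleens and 6.70 to 8.80 in ICJ spleens. With their level as a covariate the median of the collagens was 0.32 and 10 members were at an unadjusted p below 0.05.

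Genes of B cells, the lymphocytes that make antibodies, were measured through a marker list and a list of immunoglobulin genes. All 6 tested B cell markers had a lower fitted level in ACJ, with a median log2 fold change of -0.19, which was -0.33 without ICJ replicate 2 and -0.12 without ICJ replicate 4. Of the 10 tested immunoglobulin genes, 9 had a lower fitted level in ACJ. Their mean log2 CPM averaged 4.28 in ACJ spleens and 4.16 in ICJ spleens, so the list was lower by its median but not by its mean. Of the immunoglobulin genes 4 were at an unadjusted p below 0.05 and lower in ACJ, beside 2.81% of all genes in that direction, and 1 was at that p and higher. All 10 were named through the study's lists, so their lean is not independent of the study's own calls in these fish. The count of 4 was 2 without ACJ replicate 3, without ICJ replicate 3 or without ICJ replicate 4.

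The chemokine receptor gene cxcr5 (LOC106613395, chromosome 9) ranked 11th of all genes by p. In mammals CXCR5 guides B cells and helper T cells into the follicles of lymphoid organs. It stood at 8.89, 6.46, 6.03 and 12.99 CPM in ACJ spleens, against 17.4, 11.9, 18.8 and 21.7 CPM in ICJ spleens. Only ACJ replicate 4 and ICJ replicate 2 overlapped, and the log2 fold change was -1.06 ± 0.24 (SE, adjusted p = 0.854). Leaving out any one of the 8 fish kept it between -1.29 and -0.91. SBM spleens, at 10.4 to 13.7 CPM, overlapped both diets, and FM spleens had 13.8 to 25.2 CPM.

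The gene named cxl13 after the ligand of that receptor in mammals went the opposite way, although it was barely expressed and was chosen after its values were seen. It had 1.91, 1.20, 4.72 and 4.05 CPM in ACJ spleens, from 12, 8, 36 and 19 fragments, against 0.59, 0.66, 0.26 and 0.43 CPM in ICJ spleens, from 4, 4, 2 and 3 fragments. All ICJ fish were close to the level of 3 fragments, while all ACJ fish were above them (log2 fold change 2.59 ± 0.54 SE, adjusted p = 0.715). SBM spleens had 0.41 to 1.16 CPM and FM spleens 0.53 to 2.01 CPM.

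A gene named tumor necrosis factor receptor superfamily member 5-like (LOC106572807, chromosome 15), after the receptor CD40 through which helper T cells activate B cells, had 4.76, 6.61, 7.21 and 5.54 CPM in ACJ spleens, against 14.8, 22.02, 19.5 and 18.4 CPM in ICJ spleens. The ICJ fish were all at least at 2 times the ACJ fish (log2 fold change -1.62 ± 0.37 SE). The same 2 levels were present in the other diets. Among SBM fish 1 stood at 19.2 CPM and the others at 6.18 to 8.04 CPM, and among FM fish 1 stood at 6.88 CPM and the others at 17.95 to 21.01 CPM. The fish of those diets thus fell into a low and a high class, whereas each yeast diet held one class only. The gene belongs to the study's own list for this comparison. The other 7 tested members of the TNF receptor superfamily were not at an unadjusted p below 0.05.

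The Ig kappa chain C region-like gene LOC106574567 stood at 11.1, 9.62, 9.83 and 13.8 CPM in ACJ spleens, against 13.7, 15.6, 17.5 and 18.6 CPM in ICJ spleens (log2 fold change -0.57 ± 0.13 SE, adjusted p = 0.854). A second Ig kappa chain C region-like gene nearby on chromosome 16, LOC106574569, had 21.8 to 25.7 CPM in ACJ spleens, against 23.4 to 36.9 CPM in ICJ spleens (-0.39 ± 0.14). Both overlapped through a single ICJ fish. The gene named immunoglobulin lambda-like polypeptide 1 (LOC106606374), the most abundant of the list, had 101, 101, 84.6 and 101 CPM in ACJ spleens, against 97.5, 106, 152 and 138 CPM in ICJ spleens (-0.35 ± 0.15). Such genes lie in arrays of near-identical copies, so how fragments were shared between the copies is uncertain.

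The exception was the Ig gamma-2C chain C region-like gene LOC106595586, on a sequence with no chromosome. It had 22.1, 1.35, 12.6 and 35.8 CPM in ACJ spleens, against 0.88, 1.66, 0 and 0.14 CPM in ICJ spleens. Every ICJ fish was at 10 fragments or fewer, but ACJ replicate 2, with 9 fragments, was as low as they were (log2 fold change 4.77 ± 1.52 SE). SBM spleens had 2.86 to 45.3 CPM and FM spleens 0 to 12.5 CPM.

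Of the 6 B cell markers, 1 was at an unadjusted p below 0.05, or 16.7% against 5.67% of all genes. This was the B cell receptor subunit gene cd79b, with 126, 115, 114 and 130 CPM in ACJ spleens, against 149, 122.8, 149 and 159 CPM in ICJ spleens (log2 fold change -0.26 ± 0.10 SE). The summed level of the 6 markers was 333 to 401 CPM in ACJ spleens and 329 to 495 CPM in ICJ spleens, with ICJ replicate 2 the lowest of all 8 fish. That fish also had the lowest summed red cell markers, at 15840 CPM, against 38490 to 43080 CPM in ACJ spleens and up to 68400 CPM in the other ICJ fish. The part of blood content in the B cell values was not tested beyond the fit with the red cell level as a covariate, in which the median of the immunoglobulin genes was -0.29. With the exocrine pancreas level as a covariate it was -0.22 and 2 members were lower at an unadjusted p below 0.05.

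**Figure D3:**
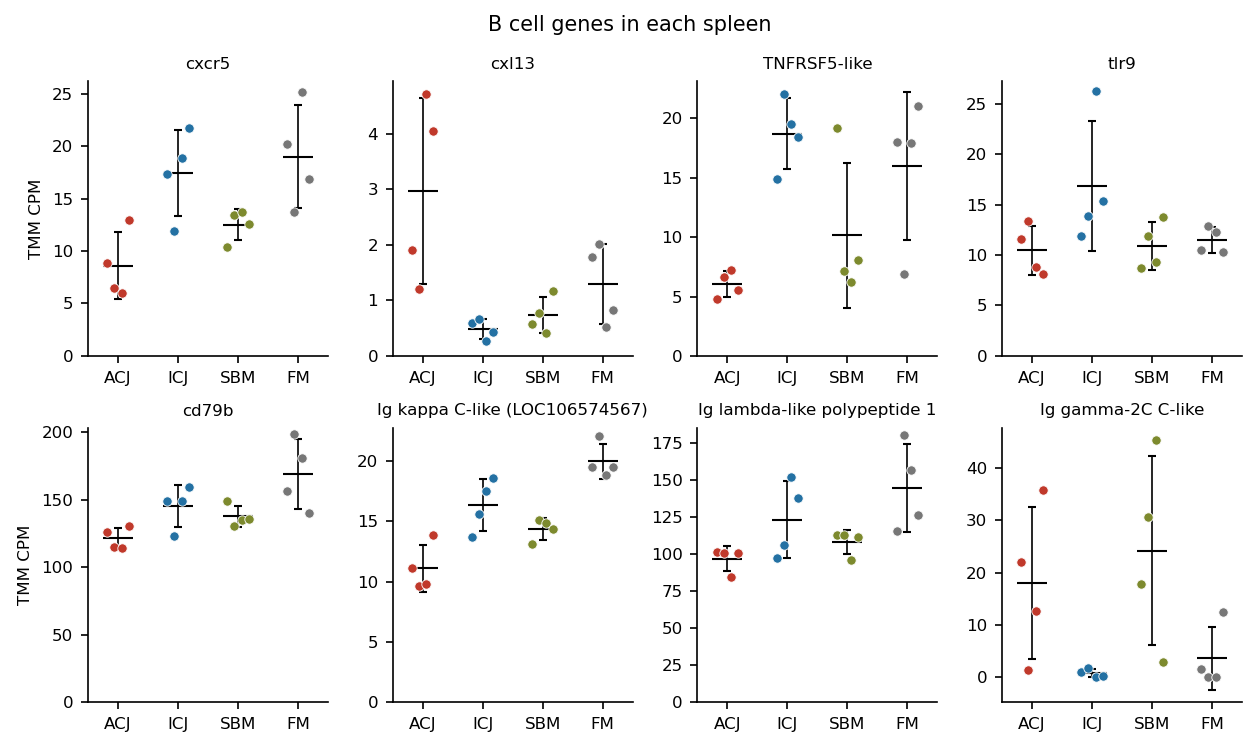
TMM-scaled CPM (y axis) of 8 B cell and receptor genes in each spleen, by diet (x axis). Points are single fish in the order of their replicate numbers, and bars are the mean ± SD of 4 fish. ACJ points lie below ICJ points in the TNFRSF5-like gene and above them in cxl13, and ACJ replicate 2 lies with the ICJ fish in the Ig gamma-2C C-like gene.

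Most toll-like and NOD-like receptor genes leaned lower in ACJ, but by little. Of 13 tested toll-like receptors and adaptors, 12 had a lower fitted level in ACJ, but the median was only -0.09. Of the 13, 1 was at an unadjusted p below 0.05, or 7.69%, near the 5.67% of all genes. This was tlr9, whose mammalian counterpart detects microbial DNA, with 11.6, 13.4, 8.78 and 8.09 CPM in ACJ spleens, against 11.9, 13.9, 26.3 and 15.3 CPM in ICJ spleens (log2 fold change -0.69 ± 0.23 SE). ICJ replicate 3 stood well above the other fish. The tlr21 gene LOC106605556 followed with 23.8 to 43.4 CPM in ACJ spleens, against 42.6 to 55.9 CPM in ICJ spleens, and was above that p. None of the 8 tested NOD-like receptor and inflammasome genes was at that p, and 6 of them had a lower fitted level in ACJ (median -0.14).

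Receptors of the family that binds yeast walls gave a single gene. Of 8 tested C-type lectin and glucan receptor signalling genes, 1 was at an unadjusted p below 0.05 and higher in ACJ, beside 2.86% of all genes. It was 1 of the 2 members named only through the study's lists, and of the 6 named by a symbol none was at that p. The C-type lectin domain family 4 member M-like gene LOC106610423 stood at 39.1, 40.3, 39.2 and 36.0 CPM in ACJ spleens, against 28.7, 32.1, 33.7 and 25.4 CPM in ICJ spleens, with no overlap (log2 fold change 0.37 ± 0.12 SE). Its SBM values of 36.4 to 50.3 CPM reached above those of ACJ, and its log2 fold change against SBM was -0.17 ± 0.11 for ACJ and -0.53 ± 0.12 for ICJ. The abundant mannose receptor gene mrc1 had 1222 to 1383 CPM in ACJ spleens, against 1165 to 1400 CPM in ICJ spleens (0.01 ± 0.10), and syk, a kinase downstream of such receptors, had 184 to 207 CPM, against 181 to 248 CPM (-0.16 ± 0.10).

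Of 16 tested cytokine and chemokine genes, 3 were at an unadjusted p below 0.05 and higher in ACJ, beside 2.86% of all genes. Of the 12 named by a symbol 1 was at that p, and the other 2 were named only through the study's lists. The C-C motif chemokine 25-like gene LOC106613704 had 44.6, 49.6, 26.3 and 30.0 CPM in ACJ spleens, against 16.3, 23.7, 18.4 and 24.1 CPM in ICJ spleens (log2 fold change 0.87 ± 0.24 SE). In mammals CCL25 attracts T cells to thymus and gut. A separate gene ccl25 on chromosome 16 was more abundant and had 82.6 to 189 CPM in ACJ spleens, against 83.7 to 190 CPM in ICJ spleens. The gene of tumor necrosis factor alpha (LOC100136509), an early inflammatory cytokine, had 6.19, 9.17, 12.3 and 11.3 CPM in ACJ spleens, against 5.29, 3.15, 3.92 and 8.09 CPM in ICJ spleens (0.92 ± 0.32). Against SBM its log2 fold change was 1.05 ± 0.32 for ACJ and 0.13 ± 0.34 for ICJ. The paper reports the opposite direction for the protein, with less tumor necrosis factor alpha in ACJ than in SBM by an antibody assay. The protein values it gives relative to SBM were also lower for ACJ than for ICJ. That assay used other spleens of the same diets, so RNA and protein were not compared within a fish. The third gene at that p was il11, at 1.43 to 2.49 CPM, against 0.71 to 1.66 CPM.

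Among 32 tested cytokine and chemokine receptors, 2 were higher and 2 lower in ACJ at an unadjusted p below 0.05, or 12.5% against 5.67% of all genes. Beside cxcr5, the gene named macrophage colony-stimulating factor 1 receptor-like (LOC106611874), a receptor that keeps macrophages alive, was lower in ACJ, at 420 to 570 CPM, against 551 to 697 CPM in ICJ spleens (log2 fold change -0.30 ± 0.10 SE). It was the only 1 of 7 tested macrophage markers at that p, or 14.3% against 5.67% of all genes. The higher receptors were ccr3, with 12.3 to 15.6 CPM in ACJ spleens, against 7.06 to 11.1 CPM in ICJ spleens, and ifngr1, with 1.97 to 3.46 CPM, against 1.18 to 1.70 CPM. Neither overlapped.

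MHC class I molecules, which show antigens to cytotoxic T cells, are loaded with peptides that the immunoproteasome cuts and the TAP transporter imports. Of 15 tested antigen presentation genes, 3 were at an unadjusted p below 0.05 and higher in ACJ, beside 2.86% of all genes, and none was at that p and lower. All 3 lie on chromosome 27 within 143307 bases, and Sasa-UBA was named only through the study's lists. The class I heavy chain gene Sasa-UBA (LOC106588402, 10037565 to 10054429, plus strand) stood at 444, 423, 455 and 575 CPM in ACJ spleens, against 52.6, 167, 46.2 and 377 CPM in ICJ spleens. All ACJ fish were above all ICJ fish, but the ICJ fish differed among themselves far more (log2 fold change 1.56 ± 0.57 SE). SBM fish had 290 to 603 CPM and FM fish 197 to 386 CPM, and ICJ replicates 1, 2 and 3 lay below all of these, while ICJ replicate 4 lay within both ranges.

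The immunoproteasome subunit gene psmb9-a (10171103 to 10175147) had 61.8, 70.3, 77.97 and 68.6 CPM in ACJ spleens, against 44.4, 48.5, 50.9 and 60.6 CPM in ICJ spleens, with no overlap (log2 fold change 0.45 ± 0.13 SE). Its neighbour tap2b (10176035 to 10180872), a subunit of the peptide transporter, had 31.0, 34.9, 42.7 and 24.7 CPM in ACJ spleens, against 7.06, 14.4, 24.5 and 27.7 CPM in ICJ spleens (0.86 ± 0.38). Of the 10 genes tested around them, the other 7 were above that p. These include tapbp, which overlaps the start of Sasa-UBA on the opposite strand and had 57.3 to 75.8 CPM in ACJ spleens, against 58.2 to 63.2 CPM in ICJ spleens.

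Related genes lie elsewhere in the genome. On chromosome 14, psmb9-b had a log2 fold change of 0.06 ± 0.12 and tap2a1 one of 0.30 ± 0.37, and tap1, for the other subunit of the transporter, had 0.07 ± 0.10 on chromosome 5 (SE). Whether these differ from the genes on chromosome 27 was not tested. The MHC class II invariant chain gene cd74a, the most abundant gene of the list, had 5500 to 5720 CPM in ACJ spleens, against 5362 to 6357 CPM in ICJ spleens (-0.08 ± 0.08). Of 27 tested interferon-stimulated genes, 19 had a higher fitted level in ACJ, with a median of 0.14 that was 0.02 without ICJ replicate 2, 0.05 without ICJ replicate 3, 0.22 without ACJ replicate 1 and 0.29 without ICJ replicate 4. Of these 27, 1 was at an unadjusted p below 0.05, or 3.70% against 5.67% of all genes. This was ifi44b, with 11.1, 13.7, 6.94 and 17.2 CPM in ACJ spleens, against 4.71, 8.61, 4.05 and 3.83 CPM in ICJ spleens (1.20 ± 0.37).

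**Figure D4:**
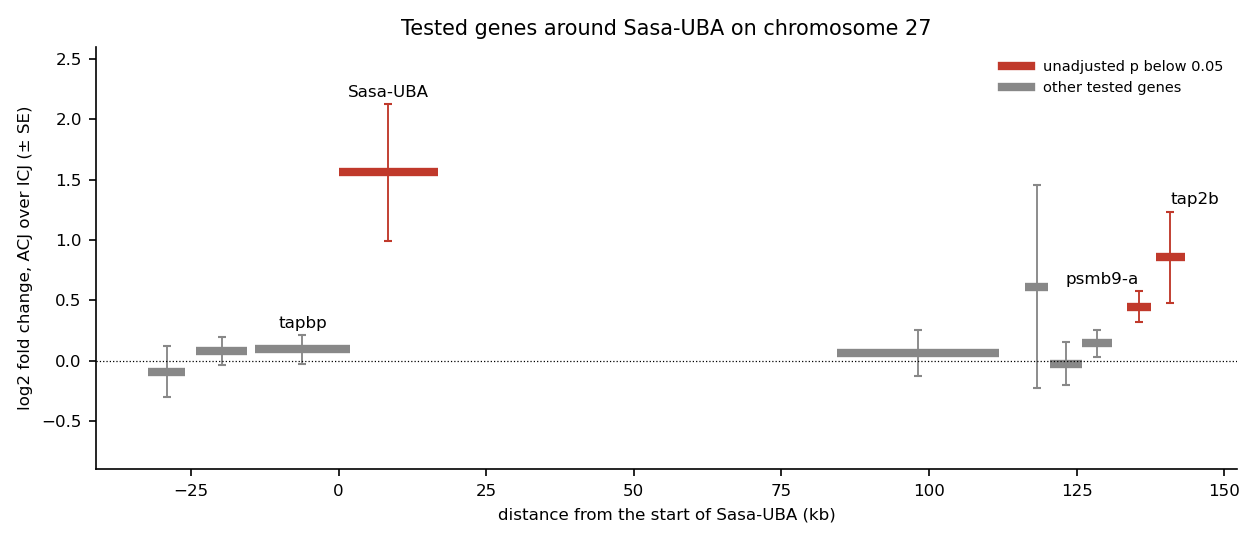
Log2 fold change of ACJ over ICJ (y axis, ± SE) for the 10 genes tested around Sasa-UBA on chromosome 27, drawn as bars over their extent in kb from the start of Sasa-UBA (x axis). Sasa-UBA, psmb9-a and tap2b, in red, were at an unadjusted p below 0.05, with values of 1.56, 0.45 and 0.86, and the other 7 genes, in grey, were not.

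Enzymes that handle oxidised and foreign molecules gave 3 of 39 tested genes at an unadjusted p below 0.05, or 7.69%, near the 5.67% of all genes. All 3 were higher in ACJ without overlap, beside 1.50% of all genes. The glutathione transferase gene gstt2b had 28.4, 38.9, 39.4 and 19.4 CPM in ACJ spleens, against 17.5, 19.04, 18.2 and 19.3 CPM in ICJ spleens (log2 fold change 0.78 ± 0.17 SE, adjusted p = 0.854). ACJ replicate 4 was at the level of the ICJ fish, and without it gstt2b was the only gene called in that fit (adjusted p = 0.0366). A second gene, gstt2, had a log2 fold change of 0.14 ± 0.23. The thioredoxin gene txnb, whose protein reduces disulfide bonds, had 15.6, 51.4, 27.3 and 41.1 CPM in ACJ spleens, against 11.8, 15.4, 14.3 and 14.8 CPM in ICJ spleens (1.26 ± 0.35), and txndc9 had 4.68 to 6.83 CPM, against 2.09 to 3.68 CPM (0.86 ± 0.23).

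In nucleotide metabolism 1 gene was higher and 3 were lower in ACJ at an unadjusted p below 0.05, of 31 tested, or 12.9% against 5.67% of all genes. The higher one was gmps, which makes guanine nucleotides, with 30.5, 29.2, 29.5 and 33.4 CPM in ACJ spleens, against 18.97, 24.2, 25.4 and 24.4 CPM in ICJ spleens (log2 fold change 0.40 ± 0.11 SE). The gene tyms, for the enzyme that makes thymidylate for DNA synthesis, had 39.1, 41.5, 37.3 and 39.2 CPM in ACJ spleens, against 43.7, 45.2, 56.2 and 51.5 CPM in ICJ spleens (-0.32 ± 0.11). The nucleotidase gene nt5c2 had 69.6 to 76.0 CPM, against 79.6 to 83.2 CPM, and adssl1, of the purine nucleotide cycle, had 96.9 to 132 CPM, against 112 to 135 CPM. Cell cycle and DNA replication genes leaned the same way as tyms, with 34 of 47 tested members lower in ACJ, but the median was -0.09. Only 1 member was at that p, or 2.13% against 5.67% of all genes. This was the mitotic kinesin gene kif4, with 24.5 to 28.04 CPM in ACJ spleens, against 30.2 to 32.8 CPM in ICJ spleens.

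Circadian clock and stress genes gave few differences. Of 22 clock genes, 2 were at an unadjusted p below 0.05, of which the repressor gene nfil3 was higher (6.31 to 10.01 CPM in ACJ spleens, against 3.26 to 6.12 CPM in ICJ spleens) and the activator gene bmal2 lower (23.2 to 24.9 CPM, against 25.1 to 32.1 CPM). Of 51 heat shock and ER stress genes, 2 were at that p, of which the ER stress sensor gene atf6 was lower (38.2 to 47.7 CPM, against 50.2 to 55.3 CPM) and a dnaja chaperone gene higher (13.2 to 22.8 CPM, against 10.5 to 18.4 CPM). These shares, 9.09% and 3.92%, were near the 5.67% of all genes. No member was at that p among 14 sterol biosynthesis genes, 15 complement genes, 28 apoptosis genes, 44 cytosolic ribosomal protein genes and 55 oxidative phosphorylation genes. Of 23 proteasome genes only psmb9-a was, or 4.35%.

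Of 17 tested cadherins and protocadherins, which join cells to each other, 1 was higher and 3 were lower in ACJ at that p, beside 2.86% and 2.81% of all genes. Of the 11 named by a symbol 1 was at that p, and of the 6 named only through the study's lists 3 were. The largest difference was in the cadherin-4-like gene LOC106582912, with 0.48, 0.90, 0.26 and 0.43 CPM in ACJ spleens, from 3, 6, 2 and 2 fragments, against 6.76, 10.3, 12.2 and 1.14 CPM in ICJ spleens, from 46, 62, 93 and 8 fragments (log2 fold change -3.83 ± 0.90 SE). The ACJ fish were near the level of 3 fragments, and SBM fish had 3.69 to 9.20 CPM. The gene cdh4 had 1.65 to 3.65 CPM in ACJ spleens, against 1.84 to 5.10 CPM in ICJ spleens. The B-cadherin-like gene LOC106587272 (365 to 488 CPM, against 406 to 602 CPM) and cdh26 (2.13 to 3.14 CPM, against 2.48 to 5.88 CPM) were lower, and the protocadherin gamma-A12-like gene LOC106611851 (93.0 to 108 CPM, against 81.7 to 97.2 CPM) was higher.

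Over all genes, 556 had a mean log2 CPM of at least 1, an unadjusted p below 0.05 and no overlap, 268 of them higher and 288 lower in ACJ. Taking 10 genes from either end of the fold changes and the 10 of smallest p gave 29 genes, of which 7 had a symbol, 5 had only a name in the study's lists and 17 had neither. The smallest p belonged to LOC106613089, which had 19.7, 14.3, 14.9 and 12.8 CPM in ACJ spleens, against 26.3, 22.8, 21.7 and 28.4 CPM in ICJ spleens (log2 fold change -0.68 ± 0.13 SE, adjusted p = 0.715). SBM fish lay at 16.9 to 19.04 CPM and FM fish at 16.5 to 20.4 CPM, so the ICJ fish were above the fish of all 3 other diets.

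Another of the genes with the smallest p was named zinc finger and BTB domain-containing protein 16-A (LOC106603639, chromosome 4), whose mammalian counterpart is a repressor needed by innate-like lymphocytes. It had 18.1, 18.2, 16.1 and 19.2 CPM in ACJ spleens, against 28.7, 22.7, 31.8 and 24.3 CPM in ICJ spleens (log2 fold change -0.59 ± 0.12 SE, adjusted p = 0.715). SBM spleens had 16.9 to 18.1 CPM, and against them the log2 fold change was 0.03 ± 0.12 for ACJ and 0.62 ± 0.12 for ICJ. A second gene of that name, LOC106567727, had 16.2 to 20.7 CPM in ACJ spleens, against 15.3 to 34.5 CPM in ICJ spleens, and both yeast diets lay above its SBM range of 6.96 to 10.6 CPM, with log2 fold changes over SBM of 1.04 ± 0.25 for ACJ and 1.42 ± 0.24 for ICJ. Among the genes higher in ACJ with a small p, hook1, for a protein that links vesicles to microtubules, averaged 4.58 ± 0.53 CPM in ACJ spleens, against 2.23 ± 0.23 CPM in ICJ spleens (1.04 ± 0.25).

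In 9 of the 10 genes with the highest fold changes ACJ replicate 2 was the highest ACJ fish, and in all 10 the SBM values reached into the ACJ range. The mitochondrial citrate carrier gene slc25a1 had 1.43, 7.81, 1.31 and 1.49 CPM in ACJ spleens, against 0.59, 1.16, 0.39 and 0 CPM in ICJ spleens, the nuclear envelope gene syne2b had 3.49, 10.5, 2.62 and 3.62 CPM, against 1.47, 2.32, 1.57 and 1.56 CPM, and LOC106582767 had 5.08, 27.9, 4.59 and 6.60 CPM, against 1.18, 3.97, 0.52 and 0.14 CPM. An annexin gene, anx2a_1, had 2.54, 10.4, 2.88 and 4.26 CPM, against 2.353, 1.49, 0.65 and 0.85 CPM, while its copy anx2a had 8.42 to 11.4 CPM, against 6.67 to 11.1 CPM. Without ACJ replicate 2 the log2 fold change was 1.42 for slc25a1, 0.91 for syne2b (LOC106599102), 1.96 for LOC106582767 and 1.27 for anx2a_1, against 2.52, 1.56, 2.995 and 1.91 with it.

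Of the other genes on the study's list for these diets, the protein FAM171B-like gene LOC106581934 had 128, 147, 142 and 154 CPM in ACJ spleens, against 63.1, 71.7, 65.0 and 116 CPM in ICJ spleens (log2 fold change 0.85 ± 0.23 SE), and LOC106567195, named there as uncharacterized, had 21.8 to 29.2 CPM, against 43.4 to 50.9 CPM (-0.99 ± 0.25). For LOC106567195, SBM fish spanned both ranges, at 22.6 to 48.9 CPM. The E3 ubiquitin-protein ligase RNF213-like gene LOC106583653 was present in some fish and missing in others. It had no fragment in any ACJ fish, which allows at most 0.406 to 0.598 CPM in each, and 0, 102, 0 and 512 fragments in ICJ fish. Among fish of the other diets 3 of 4 SBM fish and 1 of 4 FM fish had fragments, and its unadjusted p was above 0.05 in edgeR's quasi-likelihood test. DESeq2 called it (adjusted p = 0.000206), and no fold is given because all ACJ fish were at 0.

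Cell type markers showed where single spleens stood apart. Of the 5 tested granulocyte markers, 3 had a higher and 2 a lower fitted level in ACJ, and none was at an unadjusted p below 0.05. The 3 higher ones, mmp9, mpx and lyz, were high in ACJ replicate 4, as was mmp13 of the other matrix genes. These 3 markers were added to show this after their values were seen. The matrix-degrading protease gene mmp13 had 26.7, 27.3, 55.6 and 594 CPM in ACJ spleens, against 27.8, 35.8, 20.01 and 32.8 CPM in ICJ spleens, and its log2 fold change of 2.59 ± 1.003 (SE) was 0.35 without that fish. In mmp9 the same fish had 354 CPM, in the myeloperoxidase gene mpx 109 CPM and in the lysozyme gene lyz 1207 CPM, against at most 54.6, 45.5 and 247 CPM in the other ACJ fish and 41.9, 30.5 and 586 CPM in ICJ fish. Exocrine pancreas genes, for digestive enzymes, had a summed level of 16480, 10540, 1075 and 17420 CPM in ACJ spleens, against 6487, 11420, 736 and 250 CPM in ICJ spleens. All 6 of these genes had a higher fitted level in ACJ, with a median log2 fold change of 1.25, but none was at an unadjusted p below 0.05. They varied within each diet by a factor larger than between the diets. With their level as a covariate the median of the collagens was 0.22 and 7 members were at that p, against 9 without it.

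Markers of T cells were even, at a mean log2 CPM of 3.94 to 4.16 in ACJ spleens and 3.93 to 4.19 in ICJ spleens, as were those of macrophages, at 9.47 to 9.80 and 9.63 to 9.92. Thrombocyte markers stood at 6.27 to 6.62 in ACJ spleens and 5.25 to 6.74 in ICJ spleens, and those of endothelium at 6.03 to 6.33 and 5.72 to 6.24. Of the 7 endothelial markers, 4 had a higher and 3 a lower fitted level in ACJ, with a median log2 fold change of 0.06. At an unadjusted p below 0.05 was 1 of them, or 14.3% against 5.67% of all genes. This was vwf, for the clotting factor of vessel walls, with 6.83, 13.98, 7.60 and 16.8 CPM in ACJ spleens, against 2.94, 11.1, 5.36 and 2.84 CPM in ICJ spleens.

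**Figure D5:**
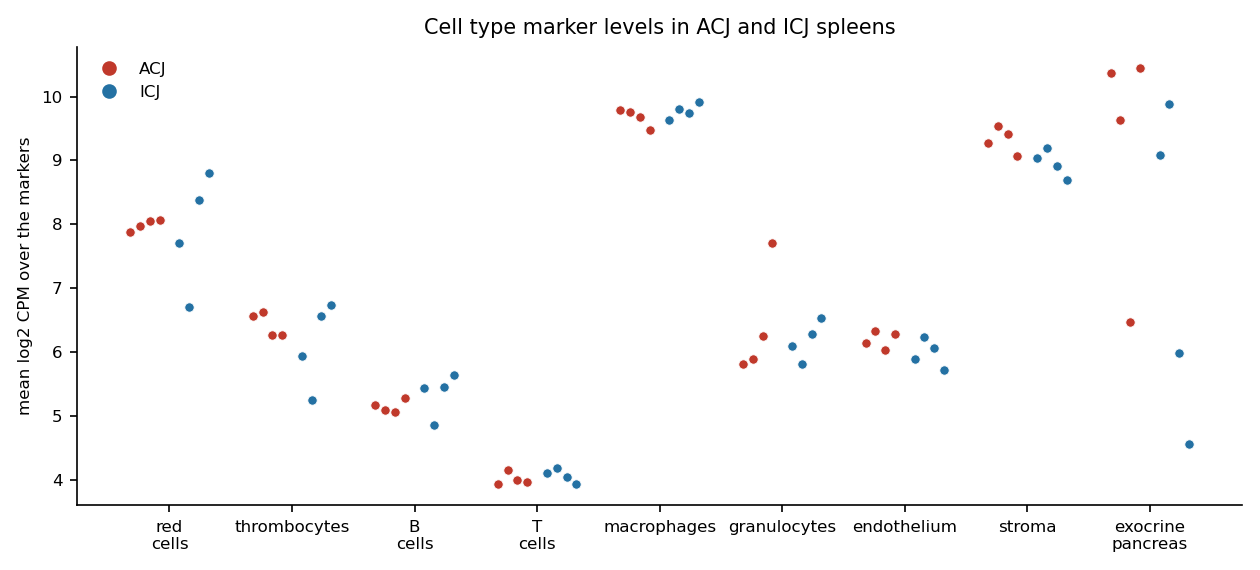
Mean log2 CPM over the markers of 9 cell types (y axis) in the ACJ and ICJ spleens, with each point a fish and the fish of a diet in the order of their replicate numbers. Red cell markers span 6.70 to 8.80 in ICJ but only 7.88 to 8.06 in ACJ, and granulocyte markers are highest in ACJ replicate 4 at 7.70. Stroma markers, of which 3 of 5 are type I collagen genes, are shifted upward in ACJ with overlap.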

How the data were processed

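Fragments per gene in spleen RNA of 16 salmon were counted by the authors, who trimmed reads with BBDuk, aligned them to ICSASG_v2 with HISAT2 (2.1.0) and ran featureCounts on the reverse strand. The deposited values are whole-number counts for 79141 features per fish, without normalization; the paper and the submitters' processing notes give featureCounts 1.4.6-p1, and the table headers give 1.5.1. A row with no gene name held at most 0.383% of the counts of an ACJ or ICJ fish and was left out. Library numbers in the table headers differ from the replicate numbers of the titles for most fish, while the diets are the same. Replicates are numbered here as in the titles.

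Genes were filtered with filterByExpr by diet, scaled by TMM and fitted over all 16 fish with a mean for each diet (edgeR 4.0.16 in R 4.3.3, glmQLFit with robust estimation, glmQLFTest, Benjamini-Hochberg adjustment). The SE of a log2 fold change is its size divided by the square root of F. Mean log2 CPM used a prior count of 2. The scripts were tested on simulated data.

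Gene names came from the count tables, RefSeq's table for Ssal_v3.1 and the study's lists, and 10138 of the tested genes had one. Chromosome numbers were assigned through RefSeq's chromosomes for the same genes (at least 86.39% on the chromosome assigned), with coordinates as in the count tables. The members, the 37 gene lists and the tests were chosen with earlier results of these data known. Genes were named by a rule: the extremes of fold change and p among genes with no overlap and a mean log2 CPM of at least 1, the 7 genes of the study's list, their copies, and members of each list by p and level. All list members at an unadjusted p below 0.05, copies of the MHC genes, the tissue check genes, LOC106589400, cxl13, mmp9, mpx and lyz were added after values were seen. Alternatives were DESeq2 1.42.0, edgeR's likelihood ratio test, RLE scaling, no filter, the 8 fish alone, a replicate block, removal of 18 hemoglobin genes and each fish left out. Covariates for red cell and exocrine pancreas markers, and lists without the study's names, were added after the data were seen.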

Additional observations from a re-analysis of the deposited data

Results flagged for a closer look

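In 9 of 165 groups of 4 fish checked, over the named genes and the marker lists, 1 fish lay far from the other fish of its diet by Dixon's test on log2 CPM, and chance alone flags about 1 group in 20 (5%). ACJ replicate 3 was low in LOC106606374 (84.6 CPM) and high in LOC106567195 (29.2 CPM) and adssl1 (132 CPM). ACJ replicate 2 was high in slc25a1 (7.81 CPM) and low in kif4, LOC106563510 (24.5 CPM). ACJ replicate 4 was high in a 60S ribosomal protein L32-like gene, LOC106566201, with 192 CPM against 1.91 to 2.23 CPM in the other ACJ fish, and this gene had 1.66 to 3.40 CPM in ICJ spleens, 3.16 to 167 CPM in SBM spleens and 1.76 to 179 CPM in FM spleens. ICJ replicate 1 was low in gmps (18.97 CPM), ICJ replicate 2 was high in syne2b, LOC106599102 (2.32 CPM), and ICJ replicate 4 was low in nfil3 (3.26 CPM).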

How the results depend on the processing

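DESeq2 called 6 genes, edgeR's likelihood ratio test with a minimum of 1 CPM in 4 fish called 4, the fit of the 8 fish alone called 2, and fits that left out a fish called 0 to 1 (1 without ACJ replicate 4). All other settings called 0. The count at an unadjusted p below 0.05 was 1219 to 2119 when a fish was left out and 1415 to 2310 otherwise. The count of collagens at that p was 2 to 14 when a fish was left out and 5 over members named by symbol, and that of lower immunoglobulin genes was 2 to 4 when a fish was left out and 2 with the exocrine pancreas covariate. Of 1423 log2 fold changes of named genes under an alternative, 15 changed sign. With a fish left out, these were LOC106566201 (-0.23 to 4.72), psmb9-b (-0.0091 to 0.15), tap2a1 (-0.21 to 0.54), gstt2 as LOC106580120 (-0.043 to 0.34), cdh4 (-0.42 to 0.12), ccl25 (-0.10 to 0.29), mrc1 (-0.043 to 0.053) and lyz as LOC100136365 (-0.83 to 0.52), and mrc1 was -0.0022 with no filter and -0.037 with the exocrine pancreas covariate. Beyond the settings' own construction, the cause was not tested.

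Fish with the same replicate number did not pair: the correlations of their deviations were 0.06, 0.16, 0.16 and -0.15. With the replicate block 0 genes were called, 1565 were at an unadjusted p below 0.05, 6 collagens were at that p with a median of 0.31, 3 immunoglobulin genes were lower with a median of -0.30, and the log2 fold change of lyz was -0.074. At this depth, genes near 0.5 CPM rest on a few fragments.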
